A study of Mus musculus with 4 samples.

Results

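Expression of 9 genes of the Hedgehog and PTHrP pathways, *Ihh*, *Ptch1*, *Smo*, *Gli1*, *Gli2*, *Gli3*, *Hhip*, *Pthlh*, and *Pth1r*, was followed by gene symbol in CD51+;CD200+ skeletal stem/progenitor cells, out of 23946 symbols listed. All 9 were in the table. Bulk RNA-seq gave 1 library from each of 3 cranial sutures, coronal (COR), sagittal (SAG), and posterior frontal (PF), and 1 from the growth plate (GP) of the tibia. The mice were wild type, of the outbred strain CD-1, at postnatal day 3 (pN3), with no treatment in any group. Cells were double sorted by FACS as positive for CD51 and CD200 and negative for CD45, Ter119, Tie2, Thy1, 6C3, and CD105. The PF suture of the mouse closes early in life, whereas SAG and COR stay patent, and GP served as the reference for long bone. What was dissected was the whole suture complex, with bone fronts, mesenchyme, dura, and periosteum. Each library came from cells of many mice, so differences between animals are not visible in these data.

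Hedgehog ligands are secreted proteins that bind the receptor PTCH1 and so release SMO, which PTCH1 otherwise holds inactive. SMO then turns the GLI transcription factors toward activation; GLI2 and GLI3 are present before the signal, GLI3 acting largely as a repressor without it, while *Gli1*, *Ptch1*, and *Hhip* are themselves switched on by the pathway and serve as its readout. In the growth plate, prehypertrophic chondrocytes secrete Indian hedgehog (IHH), which maintains PTHrP, the product of *Pthlh*, near the end of the bone. PTHrP acts through its receptor PTH1R to hold chondrocytes back from hypertrophy, which closes a feedback loop. In the calvarial sutures, cells that express *Gli1* are known as a source of bone-forming cells.

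Values are FPKM, which adjusts fragments for the length of the transcript and for the library, so levels of different genes can be set beside each other. No correction for GC content was made where levels of different genes were compared within a library. Ratios are given as differences of log2(FPKM + 1), which understates differences between low values, and a gene was counted as different at 3-fold or more if it reached 1 FPKM in at least 1 of the libraries compared. Each tissue had a single library, so there are no replicates and no test was made, and the 6 pairs of libraries share libraries with one another. The spacing of the low FPKM values, multiplied by transcript length, showed what 1 fragment was worth in each library. By this estimate, which assumes FPKM proportional to the fragments of a library, PF held 44.2% of the depth of SAG, the deepest, and COR and GP held 86.8% and 84% of it. *Itgav* and *Cd200*, the genes of the sorted antigens, were at 6.20 to 15.0 and 23.5 to 62.6 FPKM. Of the antigens sorted against, *Enpep*, the gene of 6C3, was nevertheless at 1.39 to 7.05 FPKM, and *Eng*, the gene of CD105, was at 0.679 to 1.70 FPKM. In bulk libraries, fewer cells of a type and less RNA per cell cannot be told apart.

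The largest differences among the 9 genes were those of *Ihh*, the ligand, which was abundant in GP, intermediate in COR, and low in PF and SAG. *Ihh* (mm9 chromosome 1, 74991891 to 74998246, minus strand) was at 44.0 FPKM in GP, 6.48 in COR, 0.381 in SAG, and 0.136 in PF. From the fragment spacing, these values correspond to about 3556, 541, 37, and 6 fragments, so that the order of PF and SAG rests on few fragments. Against GP, the log2 ratio was -2.59 in COR-CD51+;CD200+ cells, -5.03 in SAG, and -5.31 in PF. In GP, *Ihh* was thus 3-fold or more above each of the other 3 libraries, the 1 gene of the 9 to be so, as were 0.979% of the 13998 genes that reached 1 FPKM anywhere. Among the sutures, *Ihh* was higher in COR than in SAG, with a log2 ratio of 2.44, and lower in PF than in COR, with a ratio of -2.72. Without a pseudocount, *Ihh* was 324 times as high in GP as in PF, and 47.8 times as high in COR as in PF. Its levels in PF and SAG were both below the limit of 1 FPKM, so that this pair was not counted for *Ihh*.

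**Figure D1:**
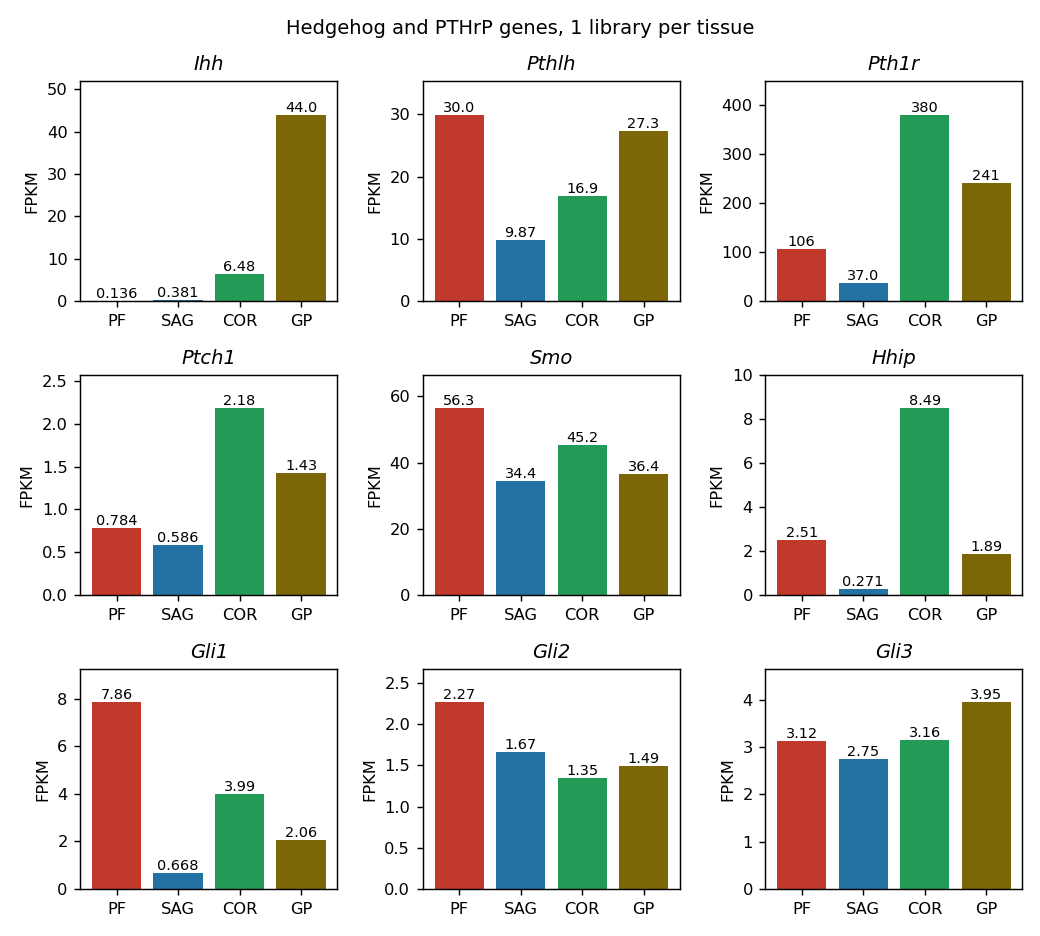
FPKM (y axis, linear and starting at 0, a scale of its own in each panel) of the 9 genes in the PF, SAG, COR, and GP libraries, 1 bar per library with its value above and no error bar since each tissue has 1 library. *Ihh* is seen almost only in GP and COR, *Gli1* is highest in PF at 7.86, *Hhip* and *Pth1r* are highest in COR at 8.49 and 380.2, and *Gli3* stays between 2.75 and 3.95.

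Because *Ihh* spans the widest range and *Ptch1* and *Hhip* are readouts of the pathway, their promoter windows are printed here, from 250 bases before to 50 bases after the start of transcription, as given by RefSeq for GRCm38.p6. This build differs from the mm9 of the expression values. The windows lie at chr1:74951623-74951922 for *Ihh*, chr13:63565686-63565985 for *Ptch1*, and chr8:80057959-80058258 for *Hhip*, all on the minus strand. Capitals mark matches, on either strand, to a GC box (GGGCGG) or to a cyclic AMP response element, CRE (TGACGTCA), the palindrome recognized by CREB, a factor activated downstream of PTH1R through cyclic AMP.
Ihh: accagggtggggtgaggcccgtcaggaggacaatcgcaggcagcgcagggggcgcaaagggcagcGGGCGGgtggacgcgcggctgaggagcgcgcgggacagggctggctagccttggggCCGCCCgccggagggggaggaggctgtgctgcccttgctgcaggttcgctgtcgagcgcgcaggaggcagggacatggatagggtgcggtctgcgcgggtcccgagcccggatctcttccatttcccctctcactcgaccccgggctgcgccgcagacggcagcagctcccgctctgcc
Ptch1: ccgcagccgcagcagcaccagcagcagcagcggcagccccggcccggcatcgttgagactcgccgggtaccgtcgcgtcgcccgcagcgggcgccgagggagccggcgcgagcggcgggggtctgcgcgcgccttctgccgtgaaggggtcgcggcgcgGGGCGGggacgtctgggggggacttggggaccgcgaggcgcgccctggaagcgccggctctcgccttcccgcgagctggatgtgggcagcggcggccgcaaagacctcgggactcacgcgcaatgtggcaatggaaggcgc
Hhip: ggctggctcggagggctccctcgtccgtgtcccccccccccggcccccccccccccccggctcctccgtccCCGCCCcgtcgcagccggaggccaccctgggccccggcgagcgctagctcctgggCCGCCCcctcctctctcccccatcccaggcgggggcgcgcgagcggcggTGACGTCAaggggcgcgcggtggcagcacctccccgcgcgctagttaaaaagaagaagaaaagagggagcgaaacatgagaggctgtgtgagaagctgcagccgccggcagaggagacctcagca

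All 3 windows are rich in G and C, at 72.7% for *Ihh*, 76.3% for *Ptch1*, and 73.7% for *Hhip*, where the median over 32851 windows of the same length was 52.7%. The *Hhip* window holds the CRE at position -75, counted back from the start; 1.79% of all windows hold one. GC boxes begin at -185 and -129 in *Ihh*, at -91 in *Ptch1*, and at -179 and -124 in *Hhip*, and 35.7% of all windows hold at least 1. RefSeq windows were at hand for 8 of the 9 genes, and *Gli1* had none. None of their 10 windows, of which *Pth1r* has 3, holds the GLI motif GACCACCCA, the RUNX motif AACCACA, or TATAAA, found in 0.253%, 5.27%, and 13.6% of all windows. These matches are descriptions of letters in short windows and do not show binding.

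Of the other ligand genes, *Dhh* was detected in every library and *Shh*, the remaining ligand of the family, is listed at 0 in all 4. *Dhh*, which encodes desert hedgehog (mm9 chromosome 15, 98723462 to 98728971), stood at 15.5 FPKM in PF, 11.7 in GP, 5.13 in COR, and 1.43 in SAG, or about 630, 907, 410, and 132 fragments. *Dhh* was thus the higher of the detected ligand genes in PF and SAG, and *Ihh* in COR and GP. The level of *Ihh* divided by that of *Dhh* in the same library was 3.75 in GP, 1.26 in COR, 0.266 in SAG, and 0.00876 in PF, a comparison that does not depend on scaling between libraries. *Dhh* passed 3-fold between PF and SAG and between SAG and GP. *Scube2*, whose product helps release lipid-modified Hedgehog from the producing cell, was at 23.1 FPKM in GP, 4.71 in COR, 2.24 in PF, and 0.555 in SAG. Like *Ihh*, it stood 3-fold or more above each suture in GP. *Scube3* was highest in PF, at 15.3 FPKM, compared with 5.28 in SAG, 1.95 in COR, and 2.57 in GP. *Hhat*, which encodes the enzyme that attaches palmitate to the ligands, and *Disp1*, a transporter for their release, were detected throughout, at 8.89 to 12.6 and 2.61 to 6.80 FPKM.

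On the receiving side, *Smo* varied little, *Ptch1* was low throughout, and *Hhip* differed strongly. *Smo*, the signal transducer (mm9 chromosome 6, 29685694 to 29711365), was at 36.4 FPKM in GP, 45.2 in COR, 34.4 in SAG, and 56.3 in PF. No pair of libraries differed 3-fold in *Smo*, and its largest log2 ratio was 0.70, for PF vs SAG. *Ptch1*, the receptor (chromosome 13, 63610261 to 63674474), was at 1.43 FPKM in GP, 2.18 in COR, 0.586 in SAG, and 0.784 in PF. It was highest in COR and GP, the libraries in which *Ihh* exceeded 1 FPKM, but its log2 ratio to SAG was 1.0 in COR and its ratio to GP was -0.61 in SAG, short of 3-fold. With a pseudocount of 0.1, the COR vs SAG ratio of *Ptch1* was 1.73 and passed.

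*Hhip*, which encodes a membrane protein that binds and sequesters Hedgehog ligands (chromosome 8, 82490014 to 82581905), was at 8.49 FPKM in COR, 2.51 in PF, 1.89 in GP, and 0.271 in SAG. These are about 1318, 198, 284, and 48 fragments. COR thus stood above every other library, PF and GP were close together, and SAG was lowest. The log2 ratio was 2.90 for COR vs SAG and 1.72 for COR vs GP, both past 3-fold, while the ratio of PF to COR, -1.43, and of PF to SAG, 1.47, stayed inside it. Both of the latter passed with a pseudocount of 0.1, at -1.72 and 2.82. In COR the level of *Hhip* was 3.9 times that of *Ptch1*, in PF 3.21 times, in GP 1.32 times, and in SAG 0.462 times.

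The co-receptors of PTCH1 were detected in all 4 libraries. *Gas1* was at 43.1 FPKM in GP, 30.8 in COR, 49.8 in SAG, and 77.9 in PF, *Boc* at 51.7 in PF and 18.8 to 25.8 elsewhere, and *Cdon* at 6.04 in PF and 1.89 to 4.45 elsewhere. All 3 were highest in PF, and none passed 3-fold in any pair. *Gpc3*, a glypican that competes for Hedgehog at the cell surface, was at 100.9 FPKM in SAG and between 313 and 427 in the other 3 libraries, so that SAG lay 3-fold or more below each of them.

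The GLI genes separated into *Gli1*, which differed between the libraries, and *Gli2* and *Gli3*, which differed little. *Gli1*, the transcriptional activator whose own level reads out the pathway (mm9 chromosome 10, 126766945 to 126778645), stood at 7.86 FPKM in PF, 3.99 in COR, 2.06 in GP, and 0.668 in SAG, or about 496, 495, 248, and 95 fragments. PF was the highest and SAG the lowest, and the library with the most *Ihh*, GP, came after PF and COR. Between PF and SAG the log2 ratio was 2.41, and *Gli1* was the 1 gene of the 7 that could be counted to pass 3-fold in this pair, where 15.7% of 13490 genes passed in either direction. For COR vs SAG the fold was 2.99 on the same scale, just short of the limit, and with a pseudocount of 0.1 the log2 ratio was 2.41. For PF vs GP the log2 ratio of 1.53 also lay just inside 3-fold, and it was 1.88 with a pseudocount of 0.1. After a correction for GC content the log2 ratio was lower in these pairs. It was 1.79 for PF vs SAG, still past 3-fold, 1.34 for COR vs SAG, and 1.07 for PF vs GP. *Gli1* overlaps *Arhgap9* on the opposite strand over 55 exon bases, and whether strand was used in counting is not given in the sources used here. *Arhgap9* was at 1.25 FPKM in GP, 0.761 in SAG, and 0.140 in COR, with PF listed at 0.

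*Gli2*, the main activator of the first response (chromosome 1, 120730709 to 120950196), stood at 1.49 FPKM in GP, 1.35 in COR, 1.67 in SAG, and 2.27 in PF. *Gli3*, the main repressor (chromosome 13, 15555068 to 15821859), was at 3.95 FPKM in GP, 3.16 in COR, 3.12 in PF, and 2.75 in SAG. Neither passed 3-fold in any pair, and their log2 ratios ran from -0.40 to 0.48 over all 6 pairs. The level of *Gli1* divided by that of *Gli3* was consequently 2.52 in PF, 1.26 in COR, 0.522 in GP, and 0.243 in SAG. *Gli1* exceeded *Gli3* in PF and COR only, and *Gli2* was below *Gli3* in all 4 libraries. The GC content of the transcript is 58.5% for *Gli1* and 48.4% for *Gli3*, and these ratios were not corrected for it. These are transcript levels, and the processing of GLI2 and GLI3 proteins is not measured by them.

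Between SMO and the GLI proteins, the 14 listed regulators were more even. None of them passed 3-fold in any of the 6 pairs, where 4.40% to 15.7% of all genes passed. *Sufu*, which encodes the cytoplasmic inhibitor of the GLI proteins, was at 7.69 FPKM in GP, 10.4 in COR, 8.43 in SAG, and 23.8 in PF. *Evc* and *Evc2*, whose products join SMO in the cilium, were at 3.11 to 10.4 and 5.81 to 18.5 FPKM, lowest in SAG and highest in PF. *Prkar1a*, a regulatory subunit of the kinase PKA that restrains the pathway and also acts downstream of PTH1R, was the most abundant of the list, at 112 to 163 FPKM. *Stk36*, which encodes the kinase fused, had the widest span of the list, from 0.0110 FPKM in PF to 2.02 in SAG.

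Among 11 listed genes described elsewhere as Hedgehog targets, the directions differed. *Ccnd1*, which encodes cyclin D1 and is a target of other pathways too, was at 43.3 FPKM in GP, 41.4 in COR, 17.3 in PF, and 4.37 in SAG, which was 3-fold or more below each of the others. *Foxc2*, a forkhead factor, was at 8.22 FPKM in GP, 8.34 in COR, 15.3 in SAG, and 44.7 in PF, and passed 3-fold for PF vs COR and for PF vs GP. *Mycn* was highest in SAG, at 10.8 FPKM, and *Foxf1*, *Foxf2*, and *Foxl1* stayed below 1 FPKM in every library. *Ccnd2*, the most abundant of the list, was at 80.7 to 123 FPKM.

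**Figure D2:**
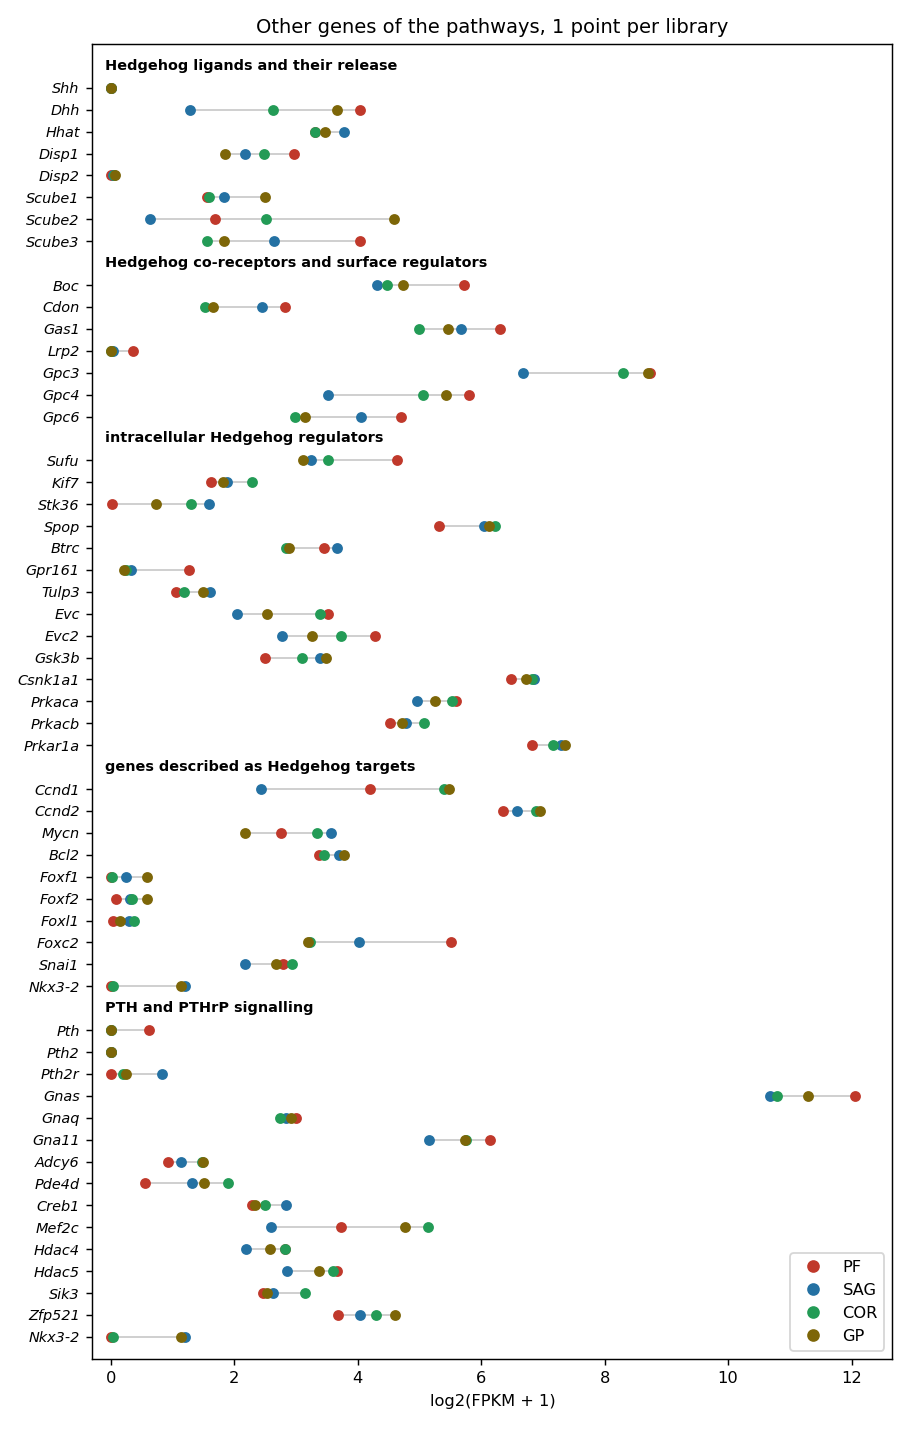
Levels of other listed genes of both pathways as log2(FPKM + 1) (x axis), 1 row per gene and 1 point per library, colored by library; the grey line joins the lowest and highest. *Dhh*, *Scube2*, *Gpc3*, *Gpc4*, *Ccnd1*, and *Mef2c* have SAG as their lowest point, whereas the intracellular regulators lie closer together.

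In the PTHrP arm, the ligand gene was expressed in every library and the receptor gene was among the more abundant transcripts. *Pthlh* (mm9 chromosome 6, 147200623 to 147212689) stood at 30.0 FPKM in PF, 27.3 in GP, 16.9 in COR, and 9.87 in SAG, or about 827, 1434, 919, and 617 fragments. PF and GP were close, with a log2 ratio of 0.13, while that of *Ihh* for PF vs GP was -5.31. The *Ihh* value in PF rests on about 6 fragments. For *Pthlh*, SAG was lowest, and its log2 ratio to GP, -1.38, and that of PF to SAG, 1.51, were both short of 3-fold. With a pseudocount of 0.1 the PF to SAG ratio was 1.59 and passed, and the SAG to GP ratio was -1.46 and did not. *Pthlh* thus passed 3-fold in none of the 6 pairs as counted here.

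*Pth1r* (chromosome 9, 110624592 to 110649649) was at 380.2 FPKM in COR, 241 in GP, 106 in PF, and 37.0 in SAG. Its order differed from that of its ligand: COR was highest for the receptor but stood below PF and GP for the ligand. The log2 ratio was 3.32 for COR vs SAG, -2.67 for SAG vs GP, and -1.83 for PF vs COR, all past 3-fold. Between PF and SAG the ratio of 1.5 and between PF and GP the ratio of -1.17 stayed inside the limit. After a correction for GC content the PF vs GP ratio was -1.66 and passed, and the PF vs SAG ratio fell to 0.83. The level of *Pth1r* divided by that of *Pthlh* was 22.5 in COR, 8.83 in GP, 3.75 in SAG, and 3.55 in PF, so that PF and SAG were alike in this ratio while both genes were higher in PF.

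Other genes of PTH and PTHrP signalling passed 3-fold at a share near or below that of all genes. *Pth2* is listed at 0 in all 4 libraries, and *Pth*, the gene of parathyroid hormone, was at 0.539 FPKM in PF and is listed at 0 in the others. *Gnas*, which encodes the G protein subunit that couples PTH1R to cyclic AMP, was at 4271 FPKM in PF, 2515 in GP, 1782 in COR, and 1639 in SAG. *Mef2c*, a factor that promotes chondrocyte hypertrophy, was at 34.2 FPKM in COR, 26.2 in GP, 12.2 in PF, and 5.0 in SAG. It was the 1 gene of this list to pass 3-fold, in COR vs SAG and in SAG vs GP, pairs in which *Pth1r* passed as well. In each of these pairs it was 1 of 12 genes that could be counted, where 9.25% and 8.66% of all genes passed. *Hdac4*, whose product holds MEF2C in check under PTHrP, was at 3.55 to 6.07 FPKM, and *Zfp521*, a further effector of PTHrP in chondrocytes, was at 11.8 to 23.3 FPKM, highest in GP. *Nkx3-2*, a repressor of hypertrophy, reached 1.29 FPKM in SAG and 1.20 in GP, was near 0 in COR, and is listed at 0 in PF.

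Counted over the 9 genes, the number past 3-fold was 1 or more in every pair. It was 1 of 7 for PF vs SAG, the gene being *Gli1*. For PF vs COR it was 2 of 9, *Ihh* and *Pth1r*, both lower in PF, where 11.7% of all genes passed. For COR vs SAG it was 3 of 9, *Ihh*, *Hhip*, and *Pth1r*, all higher in COR, where 9.25% passed. Against GP it was 1 of 9 for PF, *Ihh*, with 12.0% of all genes, and 2 of 9 for SAG, *Ihh* and *Pth1r*, with 8.66%. For COR vs GP it was 2 of 9, *Hhip* higher and *Ihh* lower in COR, where 4.40% of all genes passed. These counts stand on few genes, and in PF vs SAG and PF vs GP the share of the 9 was near that of all genes. The median log2 ratio of the genes that could be counted was 0.30 for COR vs GP, -0.88 for SAG vs GP, 0.13 for PF vs GP, -0.01 for PF vs COR, 1.0 for COR vs SAG, and 1.47 for PF vs SAG, compared with medians from -0.02 to 0.05 over all genes. The PF vs SAG median covers 7 genes and leaves out *Ihh* at -0.28 and *Ptch1* at 0.17, which raises it. The other medians cover all 9.

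**Figure D3:**
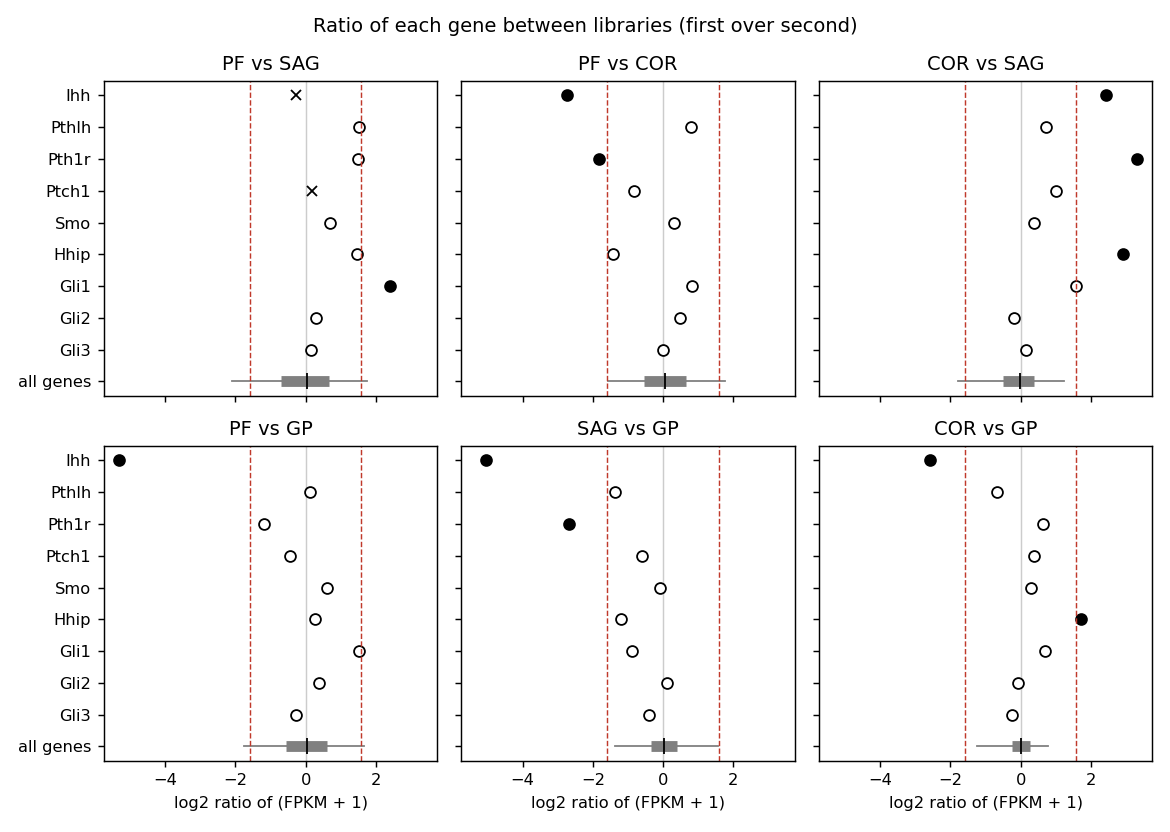
Log2 ratio of (FPKM + 1), first library over second (x axis), of the 9 genes in each of the 6 pairs; filled points passed 3-fold (dashed lines), open points did not, and crosses were below 1 FPKM in both libraries. The grey bar and line at the bottom run from the 25 to the 75 and from the 5 to the 95 percentile of all genes, with the median as a tick. *Ihh* lies past the line in every pair but PF vs SAG, and *Gli2*, *Gli3*, and *Smo* lie well inside the lines throughout.

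The 54 other genes listed for both pathways passed 3-fold at shares mostly below those of all genes. Of those that reached 1 FPKM, 1 of 44 passed for COR vs GP (2.27%, all genes 4.40%), 3 of 44 for PF vs GP (6.82%, all genes 12.0%), and 3 of 43 for PF vs COR (6.98%, all genes 11.7%). For PF vs SAG, 4 of 44 passed (9.09%, all genes 15.7%), and for COR vs SAG, 4 of 43 (9.3%, all genes 9.25%). For SAG vs GP, 6 of 44 passed (13.6%, all genes 8.66%), above the share of all genes by few genes. The 4 for PF vs SAG, *Dhh*, *Gpc3*, *Gpc4*, and *Ccnd1*, were all higher in PF. The 6 for SAG vs GP, *Dhh*, *Scube2*, *Gpc3*, *Gpc4*, *Ccnd1*, and *Mef2c*, were all lower in SAG.

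SAG was the lowest library for 7 of the 9 genes, *Ptch1*, *Smo*, *Gli1*, *Gli3*, *Hhip*, *Pthlh*, and *Pth1r*, and the highest for 0. Over all genes with a single lowest library, SAG was lowest for 26.4% and highest for 28.4%. After scaling to equal total FPKM, SAG was lowest for 5 of the 9, with *Smo* and *Gli3* no longer among them. PF was highest for 4 of the 9, *Smo*, *Gli1*, *Gli2*, and *Pthlh*, COR for 3, and GP for 2, *Ihh* and *Gli3*. After the GC correction, *Gli2* was lower in PF than in SAG, with a log2 ratio of -0.28. *Smo* was then at 0.01 for PF vs COR and *Pthlh* at 0.01 for PF vs GP, nearly level. *Gli1* stayed highest in PF, with its smallest ratio, 0.50, against COR. Over all genes with a single highest library, PF was highest for 35.2%, COR for 19.9%, and GP for 16.4%. These counts over the 9 rest on few genes.

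Markers of choroid plexus and of chondrocytes summed highest in SAG, and those of meninges in PF. The 8 choroid plexus markers summed to 5358 FPKM in SAG, 509 in PF, 201 in COR, and 56.7 in GP, with 6 of the 8 highest in SAG, *Ttr* and *Otx2* among them, and none at 0 in any library. The 6 chondrocyte markers summed to 3348 FPKM in SAG, 2289 in GP, 182 in PF, and 165 in COR, with 4 of 6 highest in SAG and 2 in GP. The 2 highest in GP were *Acan*, at 59.0 FPKM compared with 25.9 in SAG, and *Col11a1*, at 174 compared with 159. The 6 meningeal markers summed to 28.4 FPKM in GP, 69.7 in COR, 204 in SAG, and 277 in PF, with 3 of 6 highest in PF and 3 in SAG; *Slc6a13* is listed at 0 in COR and *Zic1* in GP. The part of these cells in the low values of SAG was not tested. The markers of leukocytes, neurons, endothelium, and erythroid cells summed to at most 16.3 FPKM in any library, with *Tyrobp* at 0 in all 4 and *Snap25* at 0 outside SAG.

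The levels of *Ihh* and *Pth1r* were set beside genes of chondrocyte and osteoblast stages, whose lists the study's tissues call for. In GP, the high *Ihh* went along with *Col10a1*, the collagen of hypertrophic chondrocytes, at 600.5 FPKM, compared with 1.08 in COR, 0.813 in SAG, and 1.44 in PF. In COR, by contrast, *Ihh* was at 6.48 FPKM while *Col10a1* was near 1 and *Col2a1*, the main cartilage collagen, was at 35.4 FPKM, compared with 1731 in GP. In SAG, *Col2a1* was at 1749.8 FPKM, *Matn1* at 838, and *Sox9*, the master factor of chondrocytes, at 171, while *Ihh* was at 0.381 and *Pth1r* at its lowest. Early chondrocyte genes passed 3-fold in 6 of 10 for COR vs SAG, all higher in SAG, and 7 of 10 prehypertrophic and hypertrophic genes passed in the same pair, all higher in COR, where 9.25% of all genes passed. Among the latter, *Panx3* was at 149.7 FPKM in COR, 104 in GP, 17.1 in PF, and 4.46 in SAG, an order shared with *Pth1r*. *Sp7*, which encodes the osteoblast factor osterix, was at 199.9 FPKM in COR, 47.3 in GP, 33.8 in PF, and 7.93 in SAG.

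All 7 osteoblast markers were highest in COR, the library with the most *Pth1r* and *Hhip*. They summed to 11845 FPKM in COR, 8181 in GP, 2731 in PF, and 887 in SAG, and none was at 0. Some of the prehypertrophic list, such as *Ibsp*, *Alpl*, *Runx2*, and *Sp7*, are osteoblast genes as well. PTH1R is known on cells of the osteoblast lineage as well as on prehypertrophic chondrocytes. Whether the share of such cells accounts for the differences in *Pth1r* was not tested.

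**Figure D4:**
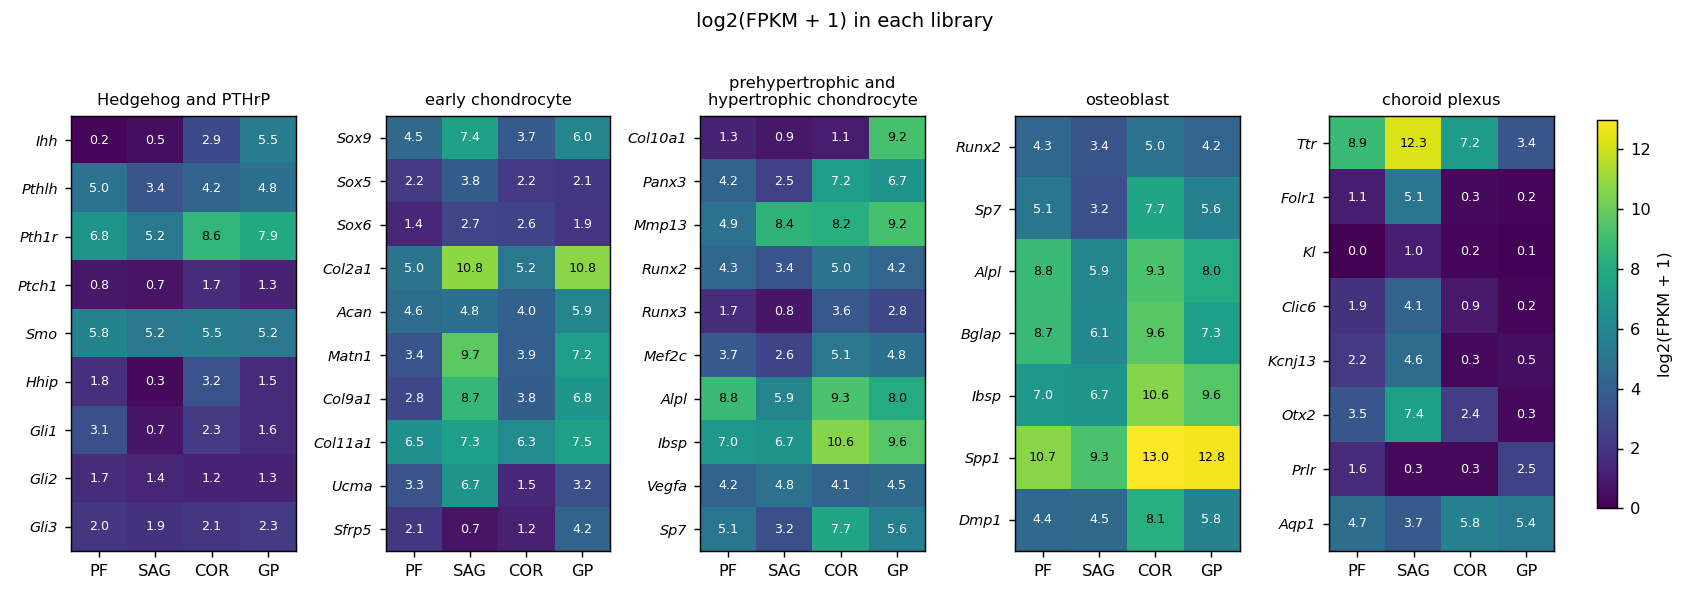
Heat map of log2(FPKM + 1), written in each cell and shown by color from 0 to 13, for the 9 genes and for early chondrocyte, later chondrocyte, osteoblast, and choroid plexus genes in the 4 libraries. COR is highest for all 7 osteoblast genes and for *Pth1r*, *Col10a1* is high in GP alone, and SAG is highest for 6 of the 8 choroid plexus genes.

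The genes closest in pattern to 4 of the members were sought over the 4 libraries, by Euclidean distance between mean-centered log2(FPKM + 1) values among the 9801 genes that reached 5 FPKM in any library. This distance is not scaled to the span of a gene, which was 5.31 log2 units for *Ihh* and 1.51 for *Pthlh*. Distances found for different members therefore cannot be set beside each other. For *Ihh* the nearest were *Tnfsf11*, the gene of the osteoclast factor RANKL, at a distance of 1.22, *Tnfaip6* at 1.24, and *Angptl7* at 1.33. *Tnfsf11* was at 21.8 FPKM in GP, 8.56 in COR, 1.14 in SAG, and 0.134 in PF. For *Gli1*, *Btbd19* at 0.18 and *Fblim1* at 0.22 were among the 3 nearest; *Fblim1*, for example, was at 10.5 FPKM in PF, 5.91 in COR, 3.81 in GP, and 1.21 in SAG. For *Hhip* they were *Lipc* at 0.33, *Shc2* at 0.37, and *Ltbp4*, the gene of a latent TGF-beta binding protein, at 0.38. For *Pthlh* they were *Axl*, a receptor tyrosine kinase, at 0.14, and *Itih5* and *Fkbp1b*, both at 0.16. With 4 libraries such likeness is a description only.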

How the data were processed

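Total RNA of CD51+;CD200+ cells was sequenced from PF, SAG, COR, and GP, 1 library per tissue. Per the labels and the study's methods, the authors made cDNA from low input, mapped paired-end reads to mouse mm9 with STAR 2.5.1b, and obtained the deposited FPKM values per gene symbol with Cuffdiff of Cufflinks 2.2.1 and the Illumina iGenomes gene model. The library normalization within Cuffdiff and the fragment totals are not given in the sources used here. Samples were grouped by their titles.

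The 9 genes and all lists were chosen with earlier results of these data known. Ratios were differences of log2(FPKM + 1), counted at 3-fold on the whole table among genes that reached 1 FPKM in either library. There was 1 library per tissue, so no test was made. Fragments per gene were estimated from the spacing of FPKM multiplied by the length of the longest coding transcript in GENCODE vM1 (mm9). The spacing was found on 8095 genes with 1 coding transcript, over the first 6 steps. It ignores isoforms and effective length, and amplified fragments are not independent molecules. Low values therefore carry counting error that FPKM does not show.

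All 9 genes were named. Further genes were named where they stood 3-fold or more apart in 1 library, lay at an end of their list, or were nearest in pattern (a few such items are not reported here), and others to describe a list after their values were seen. One listed symbol, *Foxf1a*, was not in the table. The alternatives were a pseudocount of 0.1, other filters, 4 other scalings, a 2-fold limit, and a loess fit on GC content (span 0.3, from genes at 5 FPKM or above). No pseudocount, and the other scalings for the count of genes lowest in SAG, were added after the data were seen. Python 3.11.15 with numpy 2.4.6, pandas 2.3.3, statsmodels 0.14.6, and matplotlib 3.10.9 was used, and the steps were tested on simulated data.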

Additional observations from a re-analysis of the deposited data

How the results depend on the processing

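No paired analysis was possible because there is 1 library a tissue. The counts of genes past 3-fold among the 9 moved with several choices. With a pseudocount of 0.1 they were 3 for PF vs SAG, 5 for COR vs SAG, 2 for PF vs GP, and, with *Hhip* added, 3 for PF vs COR and 3 for SAG vs GP. The share of all genes past the limit rose too, to 27.4% for PF vs SAG, 15.8% for COR vs SAG, and 22.4% for PF vs GP. It was 22.8% for PF vs COR and 14.8% for SAG vs GP. With no pseudocount the counts were the same but for 4 for SAG vs GP, where 14.2% of all genes passed. That share was 24.8% for PF vs SAG, 15.1% for COR vs SAG, 19.7% for PF vs GP, and 20.2% for PF vs COR. When 1 FPKM was required in both libraries, which leaves fewer genes, the counts were 1 for SAG vs GP, 1 for PF vs COR, 0 for PF vs GP, 1 for COR vs SAG, and 0 for PF vs SAG. *Ihh* could then be counted only in COR vs GP. Of all genes, 4.67% passed for SAG vs GP, 5.88% for PF vs COR, 5.65% for PF vs GP, 5.56% for COR vs SAG, and 8.76% for PF vs SAG. At a 2-fold limit the counts were 4 for PF vs SAG, 5 for COR vs SAG, 3 for PF vs COR, 3 for PF vs GP, and 4 for SAG vs GP. The shares of all genes were then 34.7% for PF vs SAG, 20.1% for COR vs SAG, and 29.4% for PF vs COR. They were 29.1% for PF vs GP and 18% for SAG vs GP. Quantile normalization gave 2 for PF vs SAG and 4 for COR vs SAG, where 15.7% and 8.79% of all genes passed. The GC correction gave 2 for PF vs SAG as well as 2 for PF vs GP, where 14.8% and 11.5% of all genes passed. With values divided by *Gapdh* the counts were 1 for PF vs COR, where *Pth1r* went to -1.58, 2 for PF vs GP, 4 for COR vs SAG, and 4 for PF vs SAG. Of all genes, 13.9% then passed for PF vs COR, 14.4% for PF vs GP, 9.36% for COR vs SAG, and 18.7% for PF vs SAG. The cause was not tested for the scalings and the GC correction. Division by *Gapdh* moved the median of all genes to 0.46 for PF vs GP and 0.51 for PF vs SAG, and scaling to total FPKM moved it to -0.26 for PF vs SAG, so that these ratios carry that shift. Median-ratio scaling, scaling to total FPKM, and no filter changed none of these counts.

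Of 432 ratios of single genes under the alternatives, 397 stayed on the same side of the limit, 34 came to pass it, 1 no longer passed, and 0 that passed changed sign. For PF vs SAG, the GC correction lowered *Smo* from 0.70 to 0.11 and *Pthlh* from 1.51 to 1.33, besides *Gli1* and *Pth1r*. It raised *Hhip* from 1.47 to 1.72 and *Gli3* from 0.14 to 0.23, and moved *Ihh* from -0.28 to -1.05. *Gli2* went from 0.29 to -0.28 and *Ptch1* from 0.17 to -0.22. PF was the shallowest library by the estimate, which limits low values such as *Ihh* and *Ptch1* in PF.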

Other observations

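Of 6 suture mesenchyme genes, *Six2* and *Msx2* separated GP from the sutures. *Six2*, a homeobox factor of craniofacial mesenchyme, was at 191 FPKM in PF, 96.5 in COR, 77.0 in SAG, and 2.94 in GP, and *Msx2*, a homeobox factor of the calvaria, was at 54.4 FPKM in SAG, 43.2 in PF, 22.1 in COR, and 2.13 in GP. Both were 3-fold or more below every suture in GP. *Prrx1*, a factor of limb and skull mesenchyme, was at 31.0 to 57.7 FPKM in all 4 libraries. *Twist1*, at 124 FPKM in COR and 40.4 in SAG, and *Twist2*, at 27.1 FPKM in PF and 5.43 in SAG, each passed 3-fold in the pair given. *Axin2*, a target of canonical Wnt signaling, was below 1 FPKM in every library.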
